A study of Mus musculus with 10 samples.

Results

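The 40 genes described here encode proteins that carry a cell through mitosis and cytokinesis. They were chosen by name, as the rows of the deposited tables whose Ensembl identifier maps to one of 40 listed mouse symbols, and all 40 were found among the 45318 identifiers of the tables. All 40 also passed the filter on low values, and none was dropped. By role they were 4 mitotic cyclins and CDK1, 3 mitotic kinases, 4 subunits of the chromosomal passenger complex, 4 genes of the spindle assembly checkpoint, 7 of the centromere and outer kinetochore, 7 kinesins, 5 of spindle assembly and cytokinesis, 3 of anaphase and mitotic exit, 2 of chromosome structure and proliferation, and 1 transcription factor.

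The cells were bone marrow derived macrophages, primary cells grown from the marrow of C57BL/6 mice, and their RNA was read in 5 groups of 2 libraries each. The groups were Tlr4 -/- cells (KO below) pre-treated with Poly(I:C), a man-made mimic of viral double-stranded RNA; KO cells after 6 h in a control medium with 5% FBS and 2% BSA; untreated KO cells; WT cells after 6 h in the same control medium; and untreated WT cells. TLR4 senses lipopolysaccharide of bacteria, and the series is concerned with its role in inflammatory signalling and lipid metabolism of macrophages. The labels give no duration or base medium for Poly(I:C) and no medium or time for untreated cells, so that medium, time and additive cannot be told apart in a difference from untreated cells. Poly(I:C) in WT cells was not analysed here. Tlr4 itself was read at 30.8 to 64.7 CPM in the 6 KO libraries and at 32.2 to 68.8 CPM in the 4 WT libraries, so genotypes are given as labelled. The table holds 1 value per gene, and RNA from outside a deleted stretch would not show the genotype. Whether the 2 libraries of a group came from different cultures or animals the labels do not say, and p-values measure the spread between these libraries, which may be technical.

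In a dividing cell, CDK1 bound to cyclin A or B triggers entry into mitosis, Polo and Aurora kinases build the spindle, and kinetochores couple chromosomes to its microtubules. The checkpoint kinases hold back the anaphase-promoting complex until all chromosomes are attached, after which securin and the cyclins are destroyed, sister chromatids part and the cell divides. Transcripts of most of these genes accumulate late in the cell cycle and are low in resting cells. Macrophages grown from marrow divide in culture and leave the cycle as they mature or are activated. In bulk RNA, fewer cells in mitosis and less mitotic RNA per cell cannot be told apart.

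Many promoters of late cell cycle genes carry a short element, the cell cycle genes homology region, with the letters TTTGAA, which is bound by MuvB complexes, and CCAAT boxes, which are bound by the factor NF-Y. RefSeq promoter windows of GRCm38.p6, from 250 bases before to 50 bases after a gene's start, were found for 33 of the 40 genes, in 35 windows of 300 bases. The 6 windows below show genes that fell (Bub1b, Cenpf, Plk1, Cdk1) beside a gene that was not called in either of the 2 responses with falls (Kif4) and the gene that went the other way (Pttg1). They are written 5′ to 3′ on the gene's strand, with capitals marking TTTGAA or its reverse complement and CCAAT or its reverse complement.
Bub1b (chr2:118597961-118598260, plus strand): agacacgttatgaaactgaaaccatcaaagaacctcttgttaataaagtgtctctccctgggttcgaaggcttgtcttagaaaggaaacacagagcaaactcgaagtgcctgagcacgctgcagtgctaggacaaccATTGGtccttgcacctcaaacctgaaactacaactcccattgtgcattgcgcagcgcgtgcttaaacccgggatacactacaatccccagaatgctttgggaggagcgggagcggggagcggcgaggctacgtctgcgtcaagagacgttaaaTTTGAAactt
Cenpf (chr1:189688037-189688336, minus strand): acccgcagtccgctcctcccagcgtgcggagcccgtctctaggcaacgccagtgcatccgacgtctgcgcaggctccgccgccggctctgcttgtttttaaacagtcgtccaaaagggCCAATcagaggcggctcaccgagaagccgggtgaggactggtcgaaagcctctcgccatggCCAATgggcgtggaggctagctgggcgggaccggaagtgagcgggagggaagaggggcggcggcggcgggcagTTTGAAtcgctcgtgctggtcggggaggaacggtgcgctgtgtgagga
Plk1 (chr7:122159185-122159484, plus strand): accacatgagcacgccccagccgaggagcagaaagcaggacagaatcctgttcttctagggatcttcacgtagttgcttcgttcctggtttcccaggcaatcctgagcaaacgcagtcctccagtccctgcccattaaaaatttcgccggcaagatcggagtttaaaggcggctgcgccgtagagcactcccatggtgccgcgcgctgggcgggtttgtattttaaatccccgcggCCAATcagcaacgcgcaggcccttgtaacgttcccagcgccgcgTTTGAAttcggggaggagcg
Cdk1 (chr10:69352863-69353162, minus strand): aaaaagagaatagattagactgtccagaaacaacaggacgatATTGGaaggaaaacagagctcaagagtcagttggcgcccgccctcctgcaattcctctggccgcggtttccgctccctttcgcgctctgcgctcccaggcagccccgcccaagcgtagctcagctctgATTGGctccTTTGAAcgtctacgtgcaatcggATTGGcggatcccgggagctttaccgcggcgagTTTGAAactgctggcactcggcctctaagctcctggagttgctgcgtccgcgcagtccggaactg
Kif4 (chrX:100625815-100626114, plus strand): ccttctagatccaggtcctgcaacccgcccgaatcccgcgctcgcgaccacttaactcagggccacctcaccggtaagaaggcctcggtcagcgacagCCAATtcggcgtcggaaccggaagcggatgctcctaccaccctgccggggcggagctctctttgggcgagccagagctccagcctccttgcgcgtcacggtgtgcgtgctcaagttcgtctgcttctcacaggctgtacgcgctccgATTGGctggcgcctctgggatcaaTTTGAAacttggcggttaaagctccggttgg
Pttg1 (chr11:43425932-43426231, minus strand): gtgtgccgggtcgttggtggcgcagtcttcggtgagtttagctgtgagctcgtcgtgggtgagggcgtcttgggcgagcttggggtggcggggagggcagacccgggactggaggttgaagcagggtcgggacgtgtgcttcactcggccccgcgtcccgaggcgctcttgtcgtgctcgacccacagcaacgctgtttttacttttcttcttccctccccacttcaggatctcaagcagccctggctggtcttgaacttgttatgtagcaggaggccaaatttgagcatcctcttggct

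TTTGAA stood on either strand in 26 of the 35 windows of these genes, 74.3%, against 12.4% of the 12617 windows of tested genes and 17.9% of all 32851 windows. CCAAT stood on either strand in 71.4% of their windows, against 37.7% of windows of tested genes. Both motifs stood in 62.9% of their windows, against 5.08% of windows of tested genes. Of the 35 matches of TTTGAA in their windows, 71.4% began in the last 100 bases, against 24.1% of the matches in windows of tested genes. Ect2 and Prc1 each had overlapping windows, so that the same sites were counted more than once among these matches and windows. In the windows printed above, TTTGAA began at base 291 in Bub1b, 253 in Cenpf, 281 in Plk1, 180 and 236 in Cdk1, and 270 in Kif4, counted from the 5′ end. The Pttg1 window held neither motif. By GENCODE coordinates the Pttg1 window lay wholly inside the gene, which is annotated to begin at 43426251 on the minus strand. The bases before that start were not read for motifs. Windows of Kif4, Cdca8 and Kif2c also lay wholly inside their genes by GENCODE. A related form, TTTAAA, stood in 25.7% of the windows of these genes and 9.12% of those of tested genes. In 1 gene, Cdca8, a match of TTTGAA overlapped a match of CCAAT. The 24 genes with TTTGAA in a window had a median log2 difference of −2.08 in WT control against WT untreated cells (range −3.04 to −0.40). The 9 genes without it had −1.76 (range −2.14 to 1.96). Those 9 were Birc5, Bub1, Ccnb1, Cenpe, Mad2l1, Melk, Nuf2, Nusap1 and Pttg1, and all but Pttg1 were called lower in WT control cells. Of them only Pttg1 is printed above, while each printed window of a gene that fell held TTTGAA. These matches are a description of letters in the windows and were not tested.

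Most of the 40 genes fell in WT control and in KO Poly(I:C) cells. With libraries not paired by number, none was called in KO control cells. With the replicate number as a block in the fit, Aurkb, Kif22 and Foxm1 were called lower there. In WT cells, 37 of the 40 were lower after the control medium than in untreated cells, beside 33.1% of all tested genes. The median gene of the 40 stood 4.14-fold lower. In KO cells the same medium left none of the 40 past the test, while 19.9% of all tested genes passed in either direction. The median log2 difference of the 40 was −0.14. That median was −0.45 without library 1 of KO control cells, 0.069 without library 2 of them, −0.083 without library 1 of KO untreated cells and −0.32 without library 2 of them. In KO cells given Poly(I:C), 35 of the 40 were lower than in untreated KO cells, beside 36.9% of all tested genes. The median gene of the 40 stood 3.80-fold lower. Pttg1, which encodes securin, went the other way and rose in both settings.

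CPM is the deposited value per 1000000 units of the library's total, after scaling by trimmed means (TMM). Differences are on the scale of log2(CPM + 0.1). Calls were made by limma where the p adjusted by Benjamini and Hochberg over 13171 tested genes was below 0.05. In WT control against WT untreated cells, 33.1% of all tested genes were called lower, 32.8% higher and 65.9% in either direction, beside 37 and 1 of these 40. In KO Poly(I:C) against KO untreated cells, 36.9% of all tested genes were called lower, 35.0% higher and 71.8% in either direction, beside 35 and 1 of these 40. In KO control against KO untreated cells, 9.05% of all tested genes were called lower, 10.9% higher and 19.9% in either direction, beside 0 and 0 of these 40. In WT control against WT untreated cells the libraries of 38 of the 40 genes lay wholly lower and those of 1 wholly higher, against 41.6% and 40.6% of all tested genes. In KO Poly(I:C) against KO untreated cells 37 lay wholly lower and 3, Pttg1, Kif4 and Tpx2, wholly higher, against 44.1% and 41.7% of all tested genes, Kif4 and Tpx2 turning to −0.34 and −0.31 log2 with totals alone as the scaling. The median of all tested genes lay at −0.01, −0.02 and 0.00 log2 in these 3 comparisons. With scaling by the deposited totals alone, the median of all tested genes moved to −0.52 in WT control and −0.77 in KO Poly(I:C) cells against untreated cells, and the median of the 40 to −2.57 and −2.69. With that scaling 2267 genes were called higher and 7689 lower in WT control cells (4326 and 4354 with TMM), and 2218 higher and 8703 lower in KO Poly(I:C) cells (4605 and 4855 with TMM).

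The summed level of the 40 genes was 892 and 732 CPM in KO Poly(I:C), 2024 and 1397 in KO control, 2136 and 1814 in KO untreated, 848 and 611 in WT control, and 2866 and 1691 in WT untreated libraries. All 4 libraries of KO Poly(I:C) and WT control cells lay below the other 6. The libraries of the other 3 groups overlapped.

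**Figure D1:**
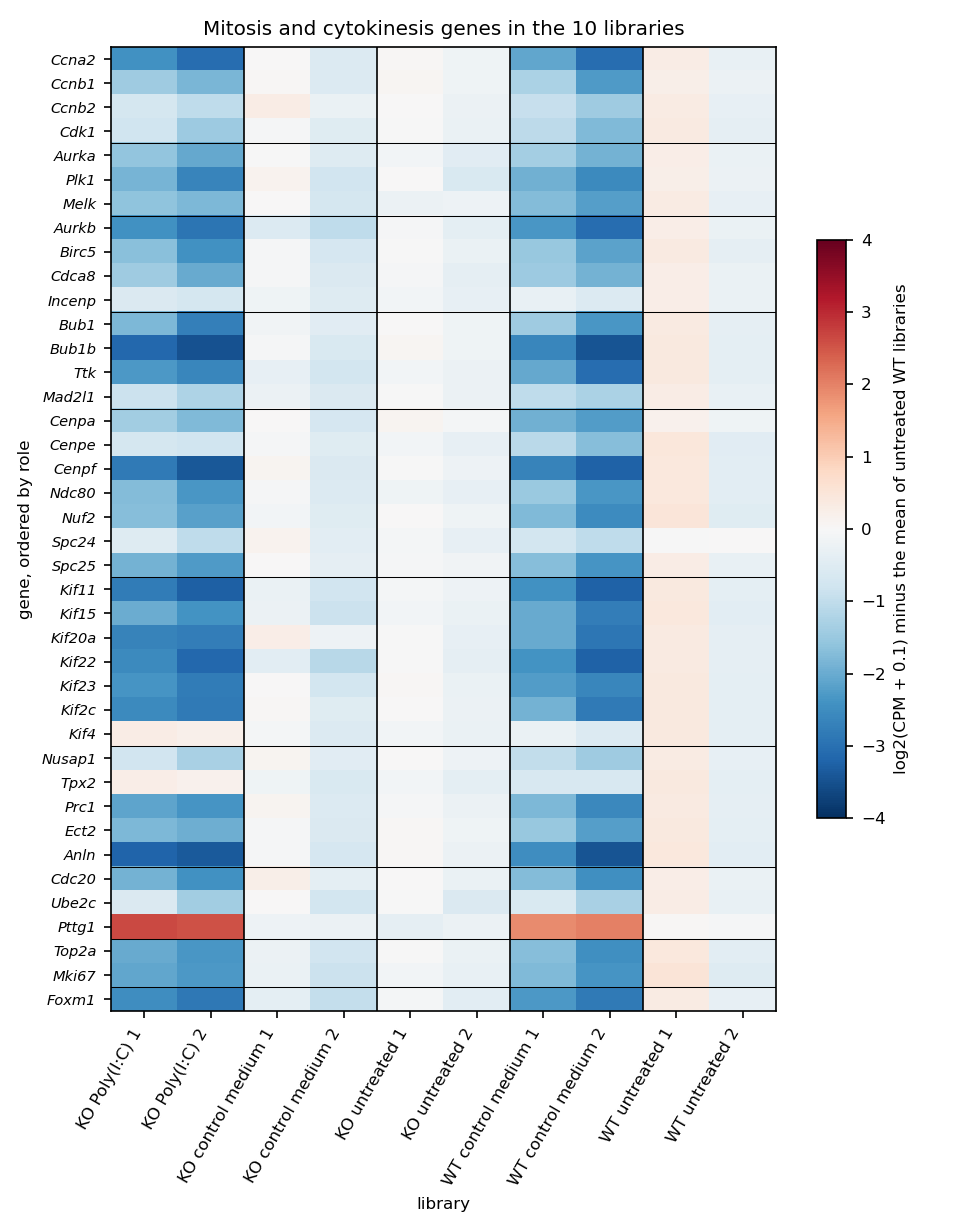
Heat map of the 40 genes, grouped by role (rows), in the 10 libraries (columns), with colour giving log2(CPM + 0.1) minus the mean of the 2 untreated WT libraries. KO Poly(I:C) and WT control libraries are blue in most rows, with Pttg1 red, and the other 6 libraries are pale.

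Among the mitotic cyclins and CDK1, all 4 genes fell in both WT control and KO Poly(I:C) cells. Ccna2, the S phase and mitotic cyclin A2, stood at 11.9 and 7.74 CPM in KO Poly(I:C), 65.3 and 44.3 in KO control, 67.001 and 58.2 in KO untreated, 15.2 and 7.73 in WT control, and 80.5 and 52.4 in WT untreated libraries. The 4 libraries of KO Poly(I:C) and WT control cells lay below all others, and Ccna2 fell in WT control cells (log2 −2.57, SE 0.33, limma adjusted p = 7.14e-05) and in KO Poly(I:C) cells (log2 −2.69, SE 0.33, limma adjusted p = 3.87e-05), both against untreated cells. Ccnb1, cyclin B1, stood at 21.5 and 16.02 CPM in KO Poly(I:C), 59.5 and 39.3 in KO control, 61.5 and 51.4 in KO untreated, 23.9 and 11.97 in WT control, and 68.05 and 48.9 in WT untreated libraries. Here too the groups did not overlap, with a difference of −1.76 (SE 0.31) log2 in WT control and −1.59 (SE 0.31) log2 in KO Poly(I:C) cells against untreated cells, both called (limma adjusted p = 0.000632 and 0.00102). Cdk1, the kinase that these cyclins activate (ENSMUSG00000019942, chromosome 10, 69335146 to 69352938, minus strand of GRCm38), stood at 43.5 and 27.3 CPM in KO Poly(I:C), 72.4 and 54.1 in KO control, 74.6 and 62.2 in KO untreated, 36.3 and 22.01 in WT control, and 96.5 and 58.8 in WT untreated libraries. Its fall was smaller, at −1.41 (SE 0.30) log2 in WT control cells and −0.98 (SE 0.30) log2 in KO Poly(I:C) cells (limma adjusted p = 0.00216 and 0.0143). The Cdk1 call in KO Poly(I:C) cells was lost without library 2 of that group (log2 −0.64, limma adjusted p = 0.127) and without library 1 of KO untreated cells (−0.88, 0.0654). Ccnb2, cyclin B2, was the least changed of the 4, at −1.17 log2 in WT control and −0.76 log2 in KO Poly(I:C) cells, and the second call was lost without library 2 of KO Poly(I:C) (limma adjusted p = 0.125) and without library 1 of KO untreated cells (0.0926), and with the deposited scaling (0.0605).

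All 3 mitotic kinases fell in both settings. Plk1, the Polo kinase that drives centrosome maturation and mitotic entry, stood at 6.08 and 3.48 CPM in KO Poly(I:C), 24.2 and 13.1 in KO control, 22.3 and 14.6 in KO untreated, 5.77 and 3.702 in WT control, and 26.1 and 18.8 in WT untreated libraries. It fell in WT control cells (log2 −2.24, SE 0.36, limma adjusted p = 0.000335) and in KO Poly(I:C) cells (log2 −1.95, SE 0.36, limma adjusted p = 0.000697). Aurka, the Aurora kinase of the spindle poles, stood at 9.81 and 6.99 CPM in KO Poly(I:C), 29.05 and 20.6 in KO control, 27.6 and 21.4 in KO untreated, 11.4 and 7.79 in WT control, and 35.8 and 24.3 in WT untreated libraries. It was lower, at −1.63 (SE 0.26) log2 in WT control and −1.54 (SE 0.26) log2 in KO Poly(I:C) cells, with no overlap between these and untreated libraries. Melk, a kinase that is abundant in dividing cells, fell by 1.95 log2 in WT control and by 1.48 log2 in KO Poly(I:C) cells.

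The chromosomal passenger complex moved unevenly. Its kinase and 2 of its partners fell, while the scaffold Incenp was called in 1 of the 2 settings. Aurkb, the Aurora kinase of the complex, stood at 7.43 and 5.22 CPM in KO Poly(I:C), 27.4 and 19.8 in KO control, 38.6 and 30.7 in KO untreated, 7.804 and 4.77 in WT control, and 47.8 and 33.4 in WT untreated libraries. The 4 libraries of KO Poly(I:C) and WT control cells lay below all others, and the log2 difference in KO Poly(I:C) cells was −2.45 (SE 0.27) (limma adjusted p = 1.9e-05). Birc5, which encodes survivin, stood at 12.3 and 7.32 CPM in KO Poly(I:C), 38.4 and 24.9 in KO control, 39.1 and 32.8 in KO untreated, 13.7 and 8.83 in WT control, and 50.9 and 30.6 in WT untreated libraries. Survivin fell by 1.83 log2 in WT control (SE 0.32) and by 1.90 log2 in KO Poly(I:C) cells (SE 0.32), and Cdca8, the borealin gene, fell by 1.67 and by 1.52 log2. Incenp, the scaffold that holds the complex together (ENSMUSG00000024660, chromosome 19, 9872296 to 9899551, minus strand), stood at 64.2 and 58.8 CPM in KO Poly(I:C), 85.7 and 66.9 in KO control, 89.9 and 76.96 in KO untreated, 77.96 and 65.3 in WT control, and 115 and 80.4 in WT untreated libraries. Its KO Poly(I:C) libraries lay below its untreated KO libraries, and the difference passed narrowly (log2 −0.44, SE 0.17, limma adjusted p = 0.0449), whereas that in WT control cells did not (log2 −0.43, SE 0.17, limma adjusted p = 0.0515). The first call was lost with the deposited or median-of-ratios scaling, with no filter on low values and on the deposited rlog values (limma adjusted p = 0.227, 0.0608, 0.0839 and 0.063). It was also lost without library 1 or 2 of KO Poly(I:C) or library 1 of KO untreated cells (limma adjusted p = 0.0796, 0.175 and 0.165). The WT control difference passed without library 2 of WT untreated cells (log2 −0.71, 0.0047).

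All 4 checkpoint genes fell in both settings, and Bub1b was the most changed of the 40 that fell. Bub1b, which encodes BubR1, a subunit of the complex that restrains the anaphase-promoting complex (ENSMUSG00000040084, chromosome 2, 118598211 to 118641591, plus strand), stood at 6.37 and 5.02 CPM in KO Poly(I:C), 54.8 and 37.3 in KO control, 60.2 and 50.1 in KO untreated, 9.17 and 5.06 in WT control, and 74.2 and 43.4 in WT untreated libraries. Its level fell in WT control cells (log2 −3.04, SE 0.31, limma adjusted p = 1.44e-05) and in KO Poly(I:C) cells (log2 −3.26, SE 0.31, limma adjusted p = 6.13e-06). Bub1, a kinetochore kinase, stood at 10.6 and 5.498 CPM in KO Poly(I:C), 33.8 and 27.1 in KO control, 38.1 and 33.2 in KO untreated, 13.7 and 7.38 in WT control, and 47.4 and 29.3 in WT untreated libraries. It fell by 1.88 log2 in WT control cells (SE 0.35) and by 2.20 log2 in KO Poly(I:C) cells (SE 0.35), without overlap of libraries. Mad2l1, the checkpoint protein MAD2 that binds CDC20, stood at 22.7 and 17.8 CPM in KO Poly(I:C), 35.2 and 28.04 in KO control, 41.2 and 35.7 in KO untreated, 20.3 and 17.1 in WT control, and 51.4 and 33.8 in WT untreated libraries. Its falls were smaller, at −1.15 (SE 0.20) log2 in WT control cells and −0.93 (SE 0.20) log2 in KO Poly(I:C) cells, and both were called (limma adjusted p = 0.000598 and 0.002). Ttk, the MPS1 kinase at the head of the checkpoint, fell by 2.56 log2 in WT control and by 2.29 log2 in KO Poly(I:C) cells.

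Of the 7 centromere and kinetochore genes, all 7 fell in WT control cells and 6 in KO Poly(I:C) cells. Cenpa, the histone H3 variant that marks centromeres, stood at 14.2 and 10.9 CPM in KO Poly(I:C), 37.2 and 23.3 in KO control, 39.9 and 34.9 in KO untreated, 9.78 and 7.85 in WT control, and 41.6 and 33.2 in WT untreated libraries. It was lower, at −2.07 (SE 0.22) log2 in WT control cells and −1.57 (SE 0.22) log2 in KO Poly(I:C) cells (limma adjusted p = 1.81e-05 and 9.78e-05). Cenpf, a large protein of the outer kinetochore (ENSMUSG00000026605, chromosome 1, 189640606 to 189688086, minus strand), stood at 4.26 and 2.83 CPM in KO Poly(I:C), 32.9 and 20.3 in KO control, 30.4 and 26.6 in KO untreated, 4.71 and 3.14 in WT control, and 41.3 and 22.7 in WT untreated libraries. Its fall was among the 3 largest in each setting, at −2.96 (SE 0.32) log2 in WT control and −3.00 (SE 0.32) log2 in KO Poly(I:C) cells. Ndc80, the microtubule-binding subunit of the NDC80 complex, stood at 6.696 and 4.43 CPM in KO Poly(I:C), 21.7 and 15.5 in KO control, 20.2 and 17.9 in KO untreated, 8.03 and 4.44 in WT control, and 30.4 and 16.8 in WT untreated libraries. It was lower, at −1.90 (SE 0.33) log2 in WT control and −1.78 (SE 0.33) log2 in KO Poly(I:C) cells, without overlap of libraries. Of its partners, Nuf2 fell by 2.14 log2 in WT control and by 1.86 log2 in KO Poly(I:C) cells, and Spc25 by 2.04 and by 1.99 log2. Spc24, the fourth subunit, changed less, at −0.87 log2 in WT control cells and −0.57 log2 in KO Poly(I:C) cells. Its first call was lost without library 2 of WT control cells (limma adjusted p = 0.054). The second was lost without library 2 of KO Poly(I:C) cells (log2 −0.32, limma adjusted p = 0.301). So it was without library 1 or 2 of KO untreated cells (0.167 and 0.0549) and without library 1 or 2 of WT control cells (0.0524 and 0.052). It was lost too with the deposited or median-of-ratios scaling, with no filter and on rlog values (limma adjusted p = 0.138, 0.0576, 0.0874 and 0.0598). Cenpe, the kinesin that carries chromosomes to the spindle equator, stood at 37.7 and 35.4 CPM in KO Poly(I:C), 59.2 and 44.2 in KO control, 56.7 and 48.7 in KO untreated, 28.8 and 18.8 in WT control, and 84.3 and 44.98 in WT untreated libraries. It fell in WT control cells (log2 −1.40, SE 0.28, limma adjusted p = 0.00134), while in KO Poly(I:C) cells, whose libraries lay below the untreated KO libraries, the difference did not pass (log2 −0.52, SE 0.28, limma adjusted p = 0.115). That difference passed when either WT untreated library was left out (limma adjusted p = 0.0289 and 0.0287), with only the groups compared (0.00213) and with totals alone as the scaling (0.00182).

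Of the 7 kinesins, 6 fell in both settings and Kif4 in neither. Kif11, the kinesin Eg5 that pushes spindle poles apart, stood at 9.603 and 6.93 CPM in KO Poly(I:C), 55.2 and 39.4 in KO control, 63.7 and 57.6 in KO untreated, 12.3 and 6.96 in WT control, and 87.2 and 51.1 in WT untreated libraries. It was lower, at −2.84 (SE 0.30) log2 in WT control and −2.88 (SE 0.30) log2 in KO Poly(I:C) cells (limma adjusted p = 1.97e-05 and 1.28e-05). Kif20a, a kinesin of the central spindle, stood at 6.96 and 6.51 CPM in KO Poly(I:C), 53.3 and 38.6 in KO control, 44.4 and 35.6 in KO untreated, 10.95 and 5.95 in WT control, and 57.4 and 34.9 in WT untreated libraries. It was lower, at −2.46 (SE 0.30) log2 in WT control and −2.55 (SE 0.30) log2 in KO Poly(I:C) cells, without overlap of libraries. It shares 2327 bases with Cdc23 on the opposite strand, which reached 34.4 CPM. Kif22, a chromosome-arm kinesin, stood at 4.35 and 2.83 CPM in KO Poly(I:C), 19.5 and 11.9 in KO control, 25.7 and 20.4 in KO untreated, 4.85 and 2.695 in WT control, and 33.5 and 20.1 in WT untreated libraries. The 4 libraries of KO Poly(I:C) and WT control cells again lay below all others. Kif22 was lower, at −2.81 (SE 0.35) log2 in WT control and −2.67 (SE 0.35) log2 in KO Poly(I:C) cells. Kif15, Kif23 and Kif2c were called lower too, at −2.40, −2.41 and −2.35 log2 in WT control cells and −1.98, −2.46 and −2.58 log2 in KO Poly(I:C) cells.

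Kif4 (ENSMUSG00000034311, chromosome X, 100625737 to 100727214, plus strand), a kinesin that binds chromosomes and the central spindle, stood at 30.1 and 28.3 CPM in KO Poly(I:C), 23.3 and 16.9 in KO control, 23.1 and 20.4 in KO untreated, 20.7 and 17.001 in WT control, and 32.2 and 18.9 in WT untreated libraries. Its WT control libraries overlapped the untreated WT libraries, and on this scale its KO Poly(I:C) libraries lay above the untreated KO libraries. Neither difference passed, at −0.40 (SE 0.23) log2 in WT control cells (limma adjusted p = 0.153) and 0.43 (SE 0.23) log2 in KO Poly(I:C) cells (limma adjusted p = 0.119), the second turning to −0.34 with scaling by totals alone. Leaving out a WT untreated library changed both calls. Without library 2 of that group the WT control difference was −0.80 log2 (limma adjusted p = 0.00549), and without library 1 or 2 of it the KO Poly(I:C) difference passed (limma adjusted p = 0.046 and 0.0449). The KO Poly(I:C) difference also passed with the deposited scaling and with only the groups compared (limma adjusted p = 0.0366 and 0.00901), and the WT control difference with totals alone as the scaling (0.00566). Kif4 shares 832 bases with Pdzd11 on the opposite strand, which reached 56.1 CPM, and the authors' strand setting is not stated in the labels. Ccna2 shares 863 bases with Exosc9, which reached 33.4 CPM, and Prc1 shares 21810 bases with Rccd1, which reached 4.52 CPM, both on the opposite strand, so that these values are uncertain to that extent.

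Among the 5 genes of spindle assembly and cytokinesis, Anln, Prc1, Ect2 and Nusap1 fell in both settings. Anln, the actin-binding protein anillin of the cleavage furrow (ENSMUSG00000036777, chromosome 9, 22332012 to 22389188, minus strand), stood at 4.61 and 4.07 CPM in KO Poly(I:C), 42.04 and 26.9 in KO control, 44.1 and 36.7 in KO untreated, 7.69 and 3.85 in WT control, and 58.04 and 32.02 in WT untreated libraries. It fell in WT control cells (log2 −2.96, SE 0.35, limma adjusted p = 3.55e-05) and in KO Poly(I:C) cells (log2 −3.19, SE 0.35, limma adjusted p = 1.51e-05). Prc1, which bundles the microtubules of the central spindle, stood at 16.2 and 13.5 CPM in KO Poly(I:C), 75.998 and 47.8 in KO control, 67.5 and 59.7 in KO untreated, 20.3 and 11.8 in WT control, and 91.1 and 54.4 in WT untreated libraries. Ect2, which activates the GTPase RhoA for cytokinesis, stood at 8.02 and 7.15 CPM in KO Poly(I:C), 27.1 and 19.04 in KO control, 28.96 and 25.1 in KO untreated, 9.76 and 6.07 in WT control, and 36.8 and 21.7 in WT untreated libraries. Both genes kept the 4 libraries of KO Poly(I:C) and WT control cells below all others, at −2.18 and −1.86 log2 in WT control cells and −2.09 and −1.82 log2 in KO Poly(I:C) cells. Nusap1, a spindle microtubule binder, was lower, at −1.21 log2 in WT control and −0.95 log2 in KO Poly(I:C) cells, the second call being lost without library 2 of KO Poly(I:C) cells (limma adjusted p = 0.0766).

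Tpx2, the activator of Aurora A at the spindle (ENSMUSG00000027469, chromosome 2, 152847964 to 152895321, plus strand), stood at 83.9 and 78.4 CPM in KO Poly(I:C), 62.1 and 45.97 in KO control, 64.7 and 53.5 in KO untreated, 44.9 and 44.99 in WT control, and 92.3 and 53.3 in WT untreated libraries. WT control libraries were its lowest and on this scale KO Poly(I:C) libraries lay above both other KO groups. It was lower in WT control than in WT untreated cells (log2 −0.64, SE 0.22, limma adjusted p = 0.0275). That call was lost without library 1 of WT untreated cells (log2 −0.27, limma adjusted p = 0.196) and without either WT control library (0.0866 and 0.0861). It was lost too with the deposited scaling, with no filter and with only the groups compared (limma adjusted p = 0.0799, 0.0577 and 0.0516). The difference stood at −1.05 log2 without library 2 of WT untreated cells. In KO Poly(I:C) cells Tpx2 was not called against KO untreated cells (log2 0.46, SE 0.22, limma adjusted p = 0.0864). It was called higher there without library 1 or 2 of WT untreated cells (limma adjusted p = 0.018 and 0.0176), with the deposited scaling (0.0225) and with only the groups compared (0.00702). In KO Poly(I:C) against KO control cells Tpx2 was called higher (log2 0.60, SE 0.22, limma adjusted p = 0.0342), and with scaling by totals alone the 2 differences turned to −0.31 and −0.13. The call against KO control cells was lost without library 2 of KO control (log2 0.37, limma adjusted p = 0.238) and without library 1 or 2 of KO Poly(I:C) cells (0.121 and 0.0767), and with no filter (0.0683).

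The 3 genes of anaphase and mitotic exit split. Cdc20, the activator of the anaphase-promoting complex, stood at 5.32 and 3.62 CPM in KO Poly(I:C), 23.4 and 15.1 in KO control, 20.02 and 16.5 in KO untreated, 5.94 and 3.55 in WT control, and 23.9 and 16.4 in WT untreated libraries. It fell in WT control cells (log2 −2.08, SE 0.30, limma adjusted p = 0.000156) and in KO Poly(I:C) cells (log2 −2.03, SE 0.30, limma adjusted p = 0.000148). Ube2c, the ubiquitin-conjugating enzyme of that complex, stood at 25.1 and 14.4 CPM in KO Poly(I:C), 38.6 and 22.7 in KO control, 37.2 and 25.4 in KO untreated, 24.7 and 15.5 in WT control, and 46.6 and 30.8 in WT untreated libraries. Its spread between libraries was wide, and only the WT control difference was called (log2 −0.95, SE 0.35, limma adjusted p = 0.0358, against log2 −0.69, SE 0.35, limma adjusted p = 0.101 in KO Poly(I:C) cells). The first was lost without library 1 of WT untreated cells (limma adjusted p = 0.193) and without library 2 of WT control cells (log2 −0.62, 0.23), and also with the deposited scaling (0.0594) and with no filter (0.0742). The second passed without library 1 of KO Poly(I:C) cells (limma adjusted p = 0.035), with only the groups compared (0.0496) and with totals alone as the scaling (0.0036).

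Pttg1, the securin that holds separase inactive until anaphase (ENSMUSG00000020415, chromosome 11, 43420250 to 43426251, minus strand), stood at 137 and 128 CPM in KO Poly(I:C), 18.7 and 18.5 in KO control, 17.01 and 18.3 in KO untreated, 80.5 and 89.004 in WT control, and 22.6 and 20.9 in WT untreated libraries. The KO Poly(I:C) libraries were the highest, the WT control libraries came next, and the other 6 lay between 17.01 and 22.6 CPM. Pttg1 was higher in KO Poly(I:C) than in KO untreated cells (log2 2.90, SE 0.09, limma adjusted p = 1.88e-09), higher in KO Poly(I:C) than in KO control cells (log2 2.83, SE 0.09, limma adjusted p = 3.06e-09) and higher in WT control than in WT untreated cells (log2 1.96, SE 0.09, limma adjusted p = 4.04e-08). It was the one gene of the 40 called higher in all 3 comparisons, and these calls held under each alternative tried.

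**Figure D2:**
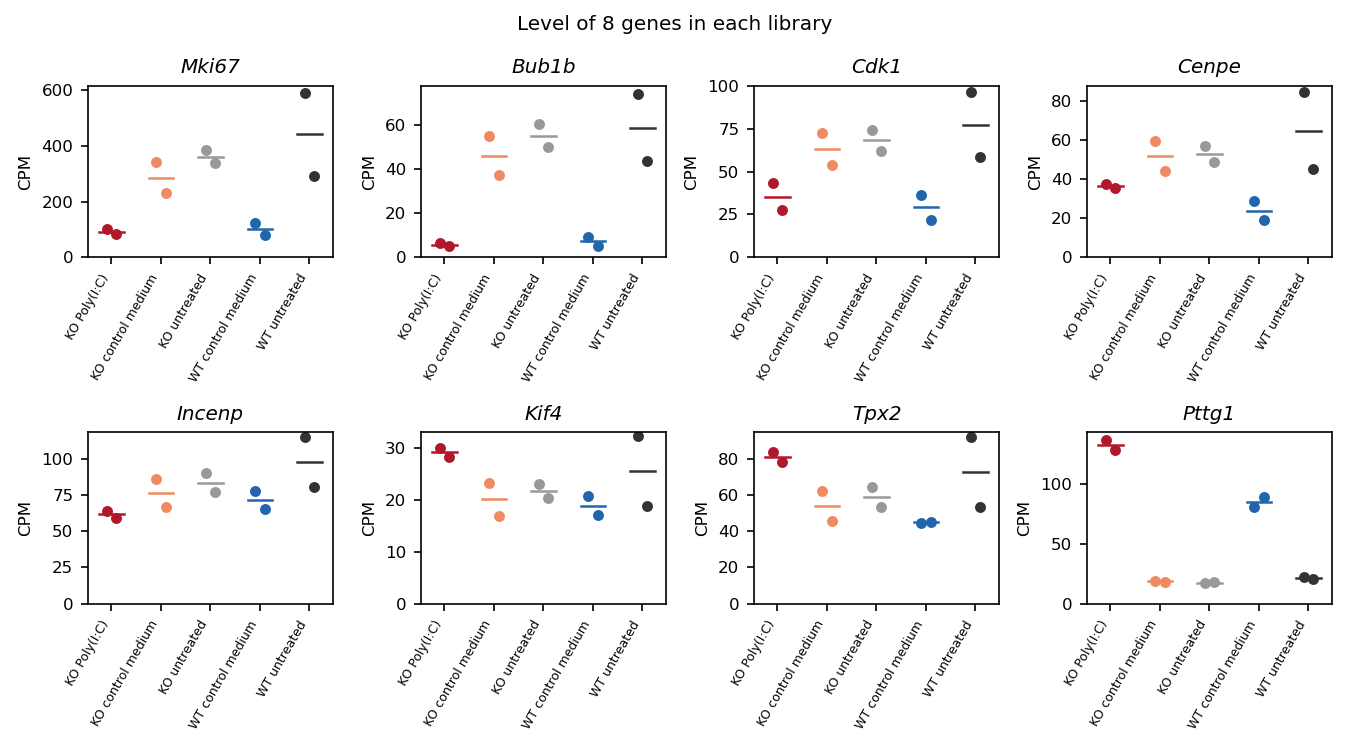
Level in CPM (vertical axis, from 0) of 8 genes in each of the 10 libraries, with a point per library and a bar for the mean of the 2 libraries of a group. Mki67, Bub1b and Cdk1 are low in KO Poly(I:C) and WT control cells. Means of Incenp run from 61.5 CPM in KO Poly(I:C) to 97.8 in WT untreated cells. Those of Kif4 run from 18.8 CPM in WT control to 29.2 in KO Poly(I:C) cells. Tpx2 is lowest in WT control cells, and Pttg1 is high only in KO Poly(I:C) and WT control cells.

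The last 3 genes are used to mark dividing cells or act on the others. Mki67, the proliferation marker Ki-67 that coats mitotic chromosomes (ENSMUSG00000031004, chromosome 7, 135689784 to 135716361, minus strand), stood at 99.5 and 83.9 CPM in KO Poly(I:C), 342 and 229 in KO control, 385 and 337 in KO untreated, 122 and 80.6 in WT control, and 589.7 and 293 in WT untreated libraries. Top2a, the topoisomerase that untangles sister chromatids, stood at 70.2 and 56.7 CPM in KO Poly(I:C), 244 and 169 in KO control, 286 and 239 in KO untreated, 88.5 and 52.6 in WT control, and 384 and 214 in WT untreated libraries. Mki67 fell by 2.07 log2 in WT control and by 1.98 log2 in KO Poly(I:C) cells and Top2a by 2.07 and by 2.05 log2, and for both genes these 4 libraries lay below all others. Foxm1, a transcription factor that activates many of the other genes, stood at 7.49 and 5.75 CPM in KO Poly(I:C), 32.1 and 21.6 in KO control, 39.5 and 31.5 in KO untreated, 8.45 and 5.81 in WT control, and 53.2 and 33.3 in WT untreated libraries. It fell in WT control cells (log2 −2.57, SE 0.27, limma adjusted p = 1.73e-05) and in KO Poly(I:C) cells (log2 −2.41, SE 0.27, limma adjusted p = 2e-05), and its 4 libraries there lay below all others.

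With libraries not paired by number, none of the 40 genes passed the test between KO control and KO untreated cells, and none had an unadjusted p under 0.05 in limma. The largest differences from untreated KO cells were −0.59 (SE 0.35) log2 for Kif22, −0.56 (SE 0.27) log2 for Aurkb and −0.42 (SE 0.27) log2 for Foxm1 (limma adjusted p = 0.276, 0.186 and 0.32). For Mki67 it was −0.36 (SE 0.31) log2 and for Kif20a 0.19 (SE 0.30) log2. With the replicate number as a block, Kif22, Aurkb and Foxm1 were called lower (limma adjusted p = 0.00956, 0.00365 and 0.0162). The libraries of the 2 groups overlapped for 34 of the 40 genes. They lay wholly lower in KO control cells for 5 and wholly higher for 1, Pttg1. Over all tested genes 31.2% lay wholly lower and 31.9% wholly higher. Of the 40 differences 34 were negative and 6 positive. A difference that misses the threshold does not show that the medium left these genes alone, and the SE of the difference ran from 0.09 to 0.36 log2 over the 40 genes.

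The response of the 2 genotypes to the control medium differed for most of the 40 genes. In KO control against WT control cells 35 of 40 were higher and 1, Pttg1, was lower, beside 31.2% and 29.9% of all tested genes (61.1% in either direction). The median gene stood 1.61 log2 higher in KO control cells. The largest differences were 2.72 (SE 0.32) log2 for Cenpf, 2.71 (SE 0.31) log2 for Bub1b and 2.60 (SE 0.35) log2 for Anln, against −2.18 (SE 0.09) log2 for Pttg1 (limma adjusted p = 5.11e-05, 3.95e-05, 0.000106 and 2.47e-08). The libraries of the 2 groups did not overlap for 36 genes higher and 1 lower in KO control cells, against 42.9% and 39.2% of all tested genes. Incenp, Kif4, Tpx2 and Ube2c were not called, at 0.09, 0.08, 0.25 and 0.59 log2. The count of 35 was 30 without library 2 of WT control cells and 31 without library 1 of KO control cells.

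Tested as an interaction, the response of KO cells to the medium minus that of WT cells was above 0 for 35 of the 40 genes and below 0 for Pttg1, beside 22.3% and 23.6% of all tested genes (45.9% in either direction). The median was 1.79 log2. Cenpf, Bub1b and Anln had the largest interaction, at 2.82 (SE 0.46), 2.76 (SE 0.44) and 2.70 (SE 0.49) log2, and Pttg1 had −1.88 (SE 0.12) log2 (limma adjusted p = 0.00076, 0.00069, 0.00142 and 2e-06). The count of 35 was 26 without library 1 of KO control cells and 27 without library 2 of WT control cells. In untreated cells the genotypes did not differ past the test in any of the 40 genes, in KO untreated against WT untreated cells, where 0.0835% of all tested genes were called higher and 0.0835% lower (0.167% in all). One of the 40, Pttg1, had an unadjusted p under 0.05 there in limma, at −0.30 (SE 0.09) log2 (adjusted p = 0.356). The median of the 40 was −0.15 log2, and 39 of 40 differences were negative. The sign of the median turned without library 1 of WT untreated cells: it was 0.21 log2 without it, −0.52 without library 2 of that group, −0.26 without library 1 of KO untreated cells and −0.021 without library 2 of them. The comparison of libraries showed 38 genes with overlapping libraries and 2 wholly lower in KO untreated cells, against 17.5% lower and 18.4% higher over all tested genes.

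Within KO cells, Poly(I:C) also set these genes apart from the control medium. In KO Poly(I:C) against KO control cells 34 of 40 were lower and 2, Pttg1 and Tpx2, were higher, beside 36.3% and 33.1% of all tested genes (69.3% in either direction). The libraries of 36 genes lay wholly lower and those of 3, Pttg1, Kif4 and Tpx2, wholly higher, against 44.7% and 40.4% of all tested genes. With totals alone as the scaling, Kif4 and Tpx2 turned to −0.17 and −0.13 log2. The median gene stood 1.66 log2 lower. Bub1b had −2.98 (SE 0.31) log2, Anln −2.93 (SE 0.35) log2 and Cenpf −2.86 (SE 0.32) log2 (limma adjusted p = 1.39e-05, 3.25e-05 and 2.46e-05). Incenp, Cenpe, Kif4 and Ube2c were not called, at −0.30, −0.48, 0.56 and −0.64 log2. The lower calls of Cdk1, Mad2l1 and Spc24 were lost with the deposited scaling (limma adjusted p = 0.0642, 0.0684 and 0.097). With no filter those of Cdk1 and Spc24 were lost (0.0582 and 0.0624), and Spc24 with only the groups compared (0.0561). Without library 2 of KO Poly(I:C) cells, Ccnb2, Cdk1, Mad2l1, Spc24 and Nusap1 stood at −0.72, −0.52, −0.46, −0.38 and −0.60 log2. Without library 1 of KO control cells they stood at −0.62, −0.67, −0.50, −0.37 and −0.60 log2. Kif4 was called higher with the deposited and median-of-ratios scalings, on rlog values and with only the groups compared (limma adjusted p = 0.0151, 0.031, 0.0305 and 0.0138), and without library 1 or 2 of WT untreated or library 1 of KO control cells (0.0123, 0.0119 and 0.0314). Cenpe was called lower with only the groups compared (0.0147) and without library 1 or 2 of WT untreated cells (0.0448 and 0.0445), Ube2c without library 2 of KO control or library 1 of KO Poly(I:C) cells (0.046 and 0.0447), and Incenp, Cenpe and Ube2c with totals alone as the scaling, under which Kif4 turned to −0.17 log2. Since the labels do not give the medium or time of the Poly(I:C) group, this comparison holds those differences too.

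The falls in KO Poly(I:C) and WT control cells, each against its own untreated cells, share no library and were set side by side gene by gene. Bub1b, Anln and Cenpf were the 3 largest falls in both, and Incenp and Spc24 were small in both. Across the 40 genes the 2 sets of log2 differences had a Pearson correlation of 0.977 and a Spearman correlation of 0.9497, and across all 13171 tested genes a Pearson correlation of 0.943. These are descriptions, over points that share the scaling of all libraries. The difference between the 2 responses was fitted in the same model, a comparison chosen after the data had been seen. For 39 of the 40 genes it did not pass, while 6.20% of all tested genes were called higher, 3.63% lower and 9.83% in either direction. Pttg1 rose more in KO Poly(I:C) cells, by 0.94 (SE 0.12) log2 (limma adjusted p = 0.0027). Next were Tpx2 at 1.10 (SE 0.32) log2, Cenpe at 0.88 (SE 0.39) log2 and Kif4 at 0.82 (SE 0.32) log2 (limma adjusted p = 0.0555, 0.2 and 0.148), which passed without library 2 of WT untreated cells (0.00682, 0.0351 and 0.0223).

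**Figure D3:**
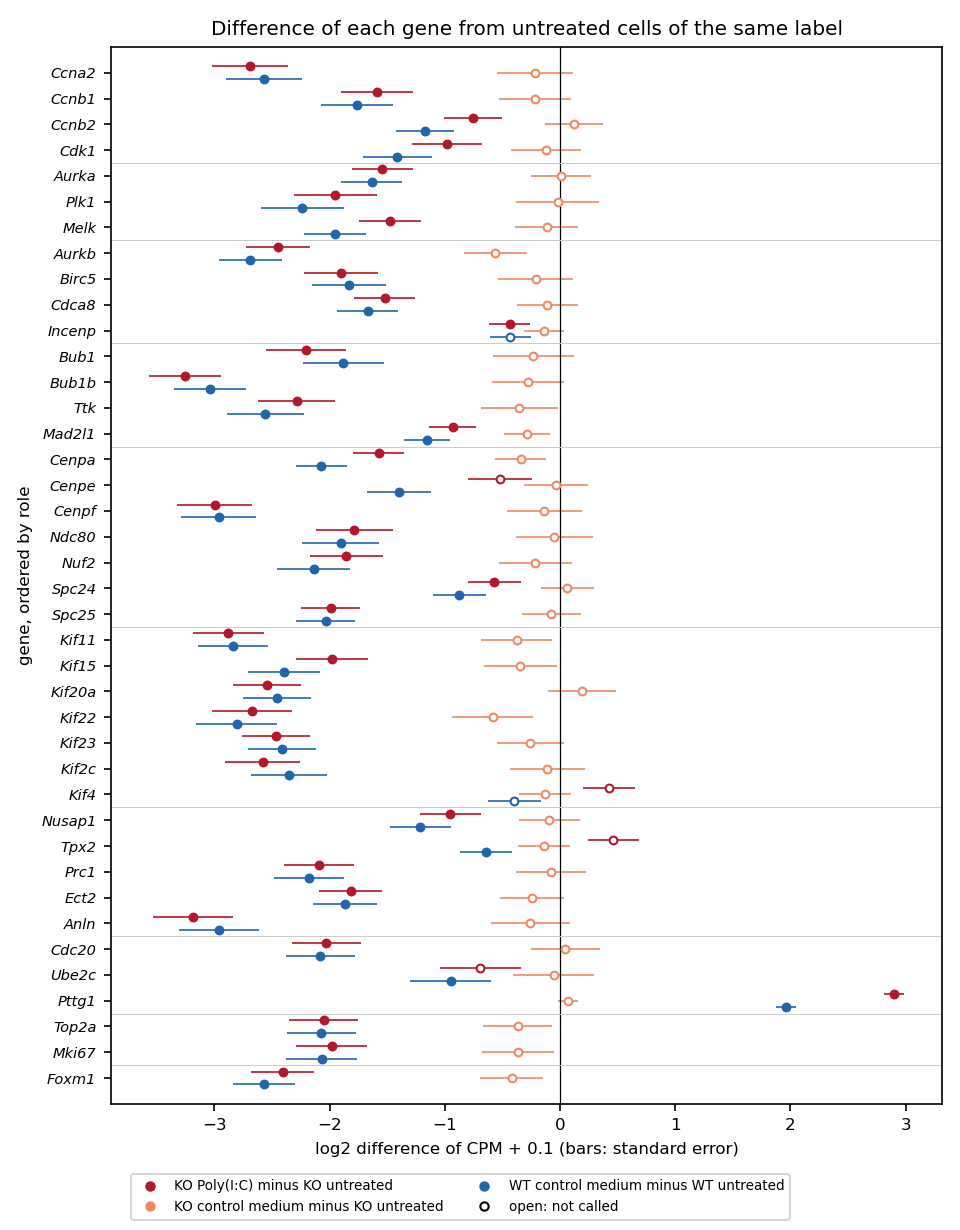
Log2 difference of CPM + 0.1 (horizontal axis) of each of the 40 genes (rows, by role) from untreated cells of the same label, with a point per comparison, a bar for its standard error and open points for differences that were not called. KO Poly(I:C) and WT control points lie left of 0 for most genes, with Bub1b at −3.26 and −3.04, KO control points lie near 0, and Pttg1 lies right of 0 at 2.90 and 1.96.

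Within each group, the 2 libraries differed in these genes in one direction. Library 1 was higher than library 2 for 40 of 40 genes in KO Poly(I:C), 40 in KO control, 38 in KO untreated, 38 in WT control and 39 in WT untreated cells, while 46.3% to 50.4% of all tested genes were higher in library 1. The median difference of library 1 from library 2 over the 40 genes was 0.39 log2 in KO Poly(I:C), 0.54 in KO control, 0.23 in KO untreated, 0.67 in WT control and 0.71 in WT untreated cells, and that of all tested genes was between −0.02 and 0.00. The widest gap was that of Mki67 in WT untreated cells, at 1.01 log2. These are descriptions with no test. In WT untreated cells, where library 1 was highest, the fall after the control medium had a median over the 40 genes of −2.35 log2 without library 2 and −1.65 log2 without library 1. The SEs above hold this spread, since each rests on the difference between libraries of a group. A fit with the replicate number as a block takes out the part of it that groups share, and its calls are given below.

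**Figure D4:**
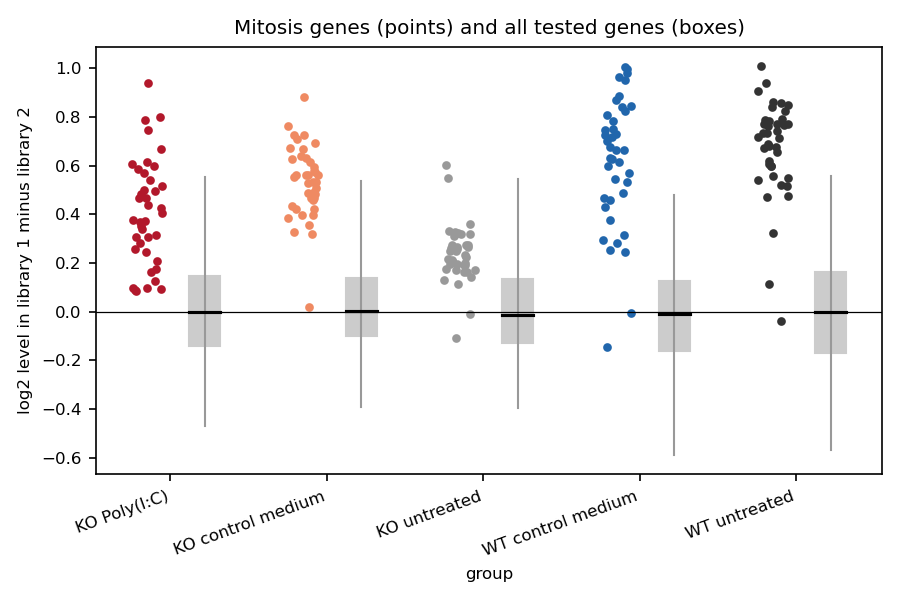
Log2 level in library 1 minus library 2 of each group (vertical axis), with a coloured point for each of the 40 genes and a grey box for all tested genes (box: middle 50%, whisker: 5th to 95th percentile, black line: median). The coloured points lie above 0 in all groups with few exceptions, and the grey boxes are centred on 0.

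The genes around these 40 in the same pathways were read from 6 further lists. Their median log2 differences in WT control and KO Poly(I:C) cells against untreated cells were −1.78 and −1.66 for other mitotic genes, −0.71 and −0.66 for condensin and cohesin, −0.97 and −0.92 for DREAM, MuvB, RB and E2F control, −0.27 and 0.16 for CDK inhibitors and G1 cyclins, and −1.59 and −1.65 for DNA replication, beside −0.01 and −0.02 over all tested genes. Over all tested genes, 33.1% were called lower and 32.8% higher in WT control cells, and 36.9% and 35.0% in KO Poly(I:C) cells. Of 68 other mitotic genes, 58 fell in WT control and 56 in KO Poly(I:C) cells against untreated cells, and 1, Zwint, rose in both. Aspm, which acts at spindle poles, and the CDK1-activating phosphatase Cdc25b fell most in WT control cells, by 3.37 and by 3.32 log2, and Cdca2 and Cdc25b in KO Poly(I:C) cells, by 3.44 and by 3.26 log2. Zwint, a kinetochore protein, was higher by 0.69 log2 in WT control and 0.42 log2 in KO Poly(I:C) cells, the second turning to −0.35 with scaling by totals alone. In the condensin and cohesin list, 14 of 20 were lower and 5 higher in WT control cells and 13 lower and 5 higher in KO Poly(I:C) cells. The condensin subunit Ncapd2 fell by 2.99 and by 3.19 log2, and the cohesin acetyltransferase Esco2 by 2.88 and by 3.68 log2. The cohesin subunit Stag2 was higher by 0.46 and 0.54 log2, and with scaling by totals alone it turned to −0.07 and −0.23.

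Genes of the anaphase-promoting complex moved in both directions, as did genes at large. Of all tested genes, 33.1% were lower and 32.8% higher in WT control cells, and 36.9% and 35.0% in KO Poly(I:C) cells. Of 17 genes listed for the complex, 4 were lower and 5 higher in WT control cells and 5 lower and 7 higher in KO Poly(I:C) cells. The median of this list was −0.02 and 0.02 log2. Its inhibitor gene Fbxo5, which encodes EMI1, fell by 2.45 and by 2.79 log2, and its enzyme gene Ube2s rose by 0.83 (SE 0.16) and by 1.49 log2 (SE 0.16), the first call being lost with scaling by totals alone (0.31 log2). Of 44 DNA replication genes, 37 fell and 0 rose in WT control cells, and 34 fell and 3 rose in KO Poly(I:C) cells. Clspn, the checkpoint mediator claspin, fell by 3.15 and by 3.81 log2. Rrm2, a subunit of ribonucleotide reductase, was lower, at −2.61 and −3.25 log2. Cdt1, the replication licensing factor, was higher by 1.69 (SE 0.22) log2 in KO Poly(I:C) cells.

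Among 20 genes of the DREAM, MuvB, RB and E2F regulators, 11 were lower in WT control and 11 in KO Poly(I:C) cells, and 2 and 5 were higher. Over all tested genes 33.1% and 36.9% were lower, and 32.8% and 35.0% higher. The activator E2F gene E2f1 was lower, at −1.38 (SE 0.14) log2 in WT control and −1.87 (SE 0.14) log2 in KO Poly(I:C) cells, E2f2 was at −2.60 and −3.07 log2, and Mybl2, which encodes B-MYB, the MuvB partner of dividing cells, was at −2.33 (SE 0.31) and −2.40 (SE 0.31) log2. E2f4, the E2F of the DREAM repressor, was higher by 0.43 (SE 0.07) and 0.49 (SE 0.07) log2, and with totals alone as the scaling stood at −0.10 and −0.28. Of 16 CDK inhibitors and G1 cyclins, 6 were lower and 4 higher in WT control cells and 5 lower and 7 higher in KO Poly(I:C) cells. These counts stand beside 33.1% lower and 32.8% higher, and 36.9% and 35.0%, of all tested genes. Cdkn1a, the CDK inhibitor p21, stood at 1077 and 1211 CPM in KO Poly(I:C), 469 and 490.4 in KO control, 453 and 410.5 in KO untreated, 828 and 1025 in WT control, and 408 and 534 in WT untreated libraries. It was higher in KO Poly(I:C) than in KO untreated cells (log2 1.40, SE 0.14, limma adjusted p = 6.88e-06) and higher in WT control than in WT untreated cells (log2 0.98, SE 0.14, limma adjusted p = 0.000126). Ccnd1, cyclin D1, rose in KO Poly(I:C) cells (log2 1.12, SE 0.14, limma adjusted p = 5.46e-05) and was not called in WT control cells (log2 −0.16, SE 0.14, limma adjusted p = 0.365), while Ccnd2 rose by 3.39 log2 in KO Poly(I:C) and by 2.06 log2 in WT control cells. Between the genotypes after the control medium, KO control cells had less Cdkn1a (−0.94 (SE 0.14) log2) and more E2f1 (1.09 (SE 0.14) log2) and Mybl2 (1.68 (SE 0.31) log2) than WT control cells.

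**Figure D5:**
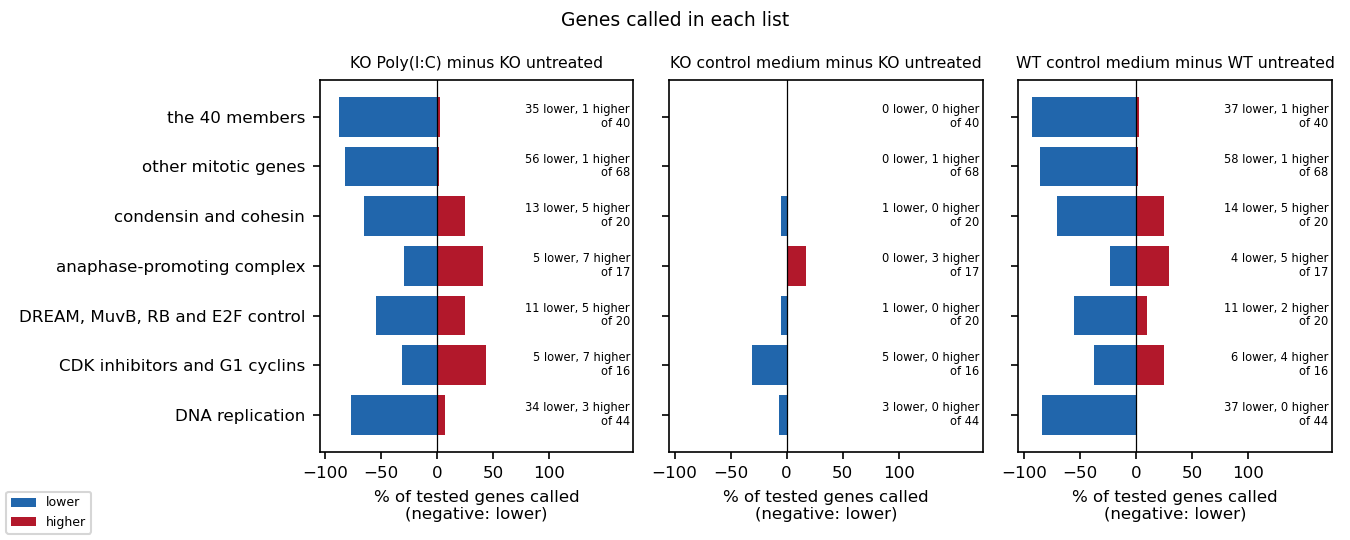
Share of the tested genes of each list (rows) called lower (blue, drawn left of 0) or higher (red, right of 0), in % of tested genes, with the counts printed beside the bars, for KO Poly(I:C), KO control and WT control cells, each against untreated cells of the same label. Of DNA replication genes 34 and 37 of 44 were lower in KO Poly(I:C) and WT control cells and 3 in KO control cells. Over all tested genes 36.9%, 33.1% and 9.05% were lower. The anaphase-promoting complex shows bars on both sides.

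Deposited totals ran from 25.2 to 51.7 M units per library, were highest in KO Poly(I:C) and WT control libraries, and are scaled, so that the read depth is unknown. The 2 libraries of a group correlated at 0.992 to 0.994 across genes. The summed level of 10 macrophage markers, led by Lyz2, lay between 23820.4 and 28878 CPM. Single markers moved both ways by limma. In WT control cells 5 were higher and 2 lower (−1.18 to 2.68 log2), beside 32.8% and 33.1% of all tested genes. In KO Poly(I:C) cells 4 were higher and 1 lower (−0.93 to 3.21 log2), beside 35.0% and 36.9%. In KO control cells 3 were higher and 3 lower (−0.49 to 0.58 log2), beside 10.9% and 9.05%, each against untreated cells. The neutrophil list, led by Csf3r, moved opposite to the 40 genes. Its sum was 849.7 and 848 CPM in KO Poly(I:C), 311 and 316 in KO control, 349 and 376 in KO untreated, 670.3 and 769 in WT control, and 347 and 370.1 in WT untreated libraries. By limma, 6 of its 8 tested genes were higher and 0 lower in WT control cells (−0.11 to 3.06 log2), beside 32.8% and 33.1% of all tested genes. In KO Poly(I:C) cells 5 were higher and 1 lower (−0.26 to 2.45 log2), beside 35.0% and 36.9%. In KO control cells 0 were higher and 3 lower, beside 10.9% and 9.05%, each against untreated cells. Its defining marker Ly6g stayed at or below 0.224 CPM and was not among the tested genes. Of B cell markers, Cd79b moved with the 40 genes and stood at 8.605 and 7.63 CPM in KO Poly(I:C), 42.4 and 36.7 in KO control, 50.5 and 47.2 in KO untreated, 10.3 and 11.3 in WT control, and 46.1 and 52.7 in WT untreated libraries, while Cd79a, Ms4a1 and Pax5 stayed at or below 0.227 CPM. On this scale the stromal and dendritic cell lists were higher in KO Poly(I:C) and WT control libraries than in the other 6, with sums of 10.04 and 7.97 CPM in KO Poly(I:C), 4.39 and 5.698 in KO control, 3.75 and 3.95 in KO untreated, 13.4 and 16.6 in WT control, and 3.67 and 6.33 in WT untreated libraries for stromal genes and at most 2.34 CPM for dendritic cell genes. In the progenitor list, by limma, 5 of 7 tested genes (Kit, Elane, Prtn3, Ctsg and Gata2) were higher and 1, Cd34, lower in KO Poly(I:C) against KO untreated cells, with a median of 2.01 log2. In WT control against WT untreated cells 3 were higher and Cd34 lower, with a median of 1.03 log2. In KO control against WT control cells Cd34 was higher and 5 were lower, beside 31.2% and 29.9% of all tested genes. The sum of the progenitor list lay between 8.33 and 17.1 CPM, with Kit at most 1.17 CPM. The erythroid and platelet list, led by Pf4, lay between 199 and 386 CPM. The T and NK cell list reached 0.281 CPM and the mast cell and basophil list 0.0327 CPM. The part of these cells in the results was not tested.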

How the data were processed

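RNA-seq libraries (TruSeq Stranded mRNA, per the labels' protocols) of mouse bone marrow derived macrophages were analysed from the authors' table of whole numbers per gene, which hold a scaled and rounded signal, and from a deposited table of rlog values, which are on a log2 scale. RSEM 1.2.12, STAR 2.4.0d, DESeq2 and Trim Galore 0.2.8 are named in the submitters' processing notes without their roles, and the genome build and strand setting are not given in the sources used here. Since the deposited values are scaled, no count model was used, although one had been planned as an alternative. Values were divided by their total times a TMM factor (30% and 5% trim) to give CPM, genes that reached 10 deposited units in 2 or more libraries were kept (13171 of 20687 above 0), and log2(CPM + 0.1) was fitted with limma 3.58.1 in R 4.3.3, with 1 term per group, 5 residual degrees of freedom and a trended prior. The test was checked on simulated data. Benjamini-Hochberg adjustment ran over all tested genes. Gene coordinates are those of GENCODE M21 on GRCm38, promoters are RefSeq's on GRCm38.p6, and Python 3.11.15 and matplotlib 3.10.9 drew the figures. Values in every library are given for 1 to 3 genes per role, for the genes of largest and smallest change and for those whose call differs from most. The genes, lists and tests were chosen with earlier results of these data known. Other scalings, filters, pseudocounts, the rlog values, a replicate block and leaving out each library were tried. Deposited totals ran from 25.2 to 51.7 M units, and 2 libraries per group limit the precision. The level of 1 marker gene, and the sum of its list, are not reported here. Overlapping genes on opposite strands cannot be told apart where strand was not used.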

Additional observations from a re-analysis of the deposited data

Results flagged for a closer look

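By the interaction term in limma, the response to the control medium was unequal between KO and WT cells for 36 of the 40 genes. Over all tested genes 22.3% were called above 0 and 23.6% below 0 (45.9% in either direction). The term, in log2 units, is the response of KO cells minus that of WT cells. For the cyclins and CDK1 it was 2.36 for Ccna2, 1.55 for Ccnb1, 1.29 for Ccnb2 and 1.29 for Cdk1. For the kinases it was 2.22 for Plk1, 1.64 for Aurka and 1.84 for Melk. For the chromosomal passenger complex it was 2.13 for Aurkb, 1.62 for Birc5 and 1.56 for Cdca8. For the checkpoint it was 1.65 for Bub1, 2.76 for Bub1b, 2.20 for Ttk and 0.87 for Mad2l1. For the centromere and kinetochore it was 1.73 for Cenpa, 1.36 for Cenpe, 2.82 for Cenpf, 1.85 for Ndc80, 1.92 for Nuf2, 0.94 for Spc24 and 1.96 for Spc25. For the kinesins it was 2.46 for Kif11, 2.05 for Kif15, 2.65 for Kif20a, 2.22 for Kif22, 2.16 for Kif23 and 2.24 for Kif2c. For spindle assembly and cytokinesis it was 1.12 for Nusap1, 2.11 for Prc1, 1.62 for Ect2 and 2.70 for Anln. For the remaining genes it was 2.13 for Cdc20, 1.70 for Top2a, 1.70 for Mki67 and 2.15 for Foxm1. Pttg1 had −1.88, the only one of the 36 below 0. For Ccnb1, Ccnb2, Cdk1, Birc5, Bub1, Mad2l1, Cenpe, Spc24 and Nusap1 the adjusted p rose above 0.05 when 1 of the libraries was left out, reaching at most 0.142. Libraries whose removal did so were library 1 of KO control, library 1 of WT untreated, library 2 of KO untreated, library 2 of WT control and library 2 of WT untreated cells.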

How the results depend on the processing

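With scaling by totals alone, calls over all genes moved to 2267 higher and 7689 lower (from 4326 and 4354) in WT control against WT untreated, 2218 higher and 8703 lower (from 4605 and 4855) in KO Poly(I:C) against KO untreated, 2081 higher and 8882 lower (from 4355 and 4775) in KO Poly(I:C) against KO control. They moved to 7672 and 2077 (from 4113 and 3940) in KO control against WT control, 6518 and 1695 (from 2934 and 3105) in the interaction, 505 and 1962 (from 817 and 478) in the difference of the 2 responses. In KO untreated against WT untreated cells 19 genes were lower with totals alone, 6 with no filter, 7 at a minimum value of 50, 6 with a pseudocount of 1 CPM and 2 with only the groups compared (7 higher), from 11. Of the 40 genes, 3 were higher in KO Poly(I:C) than in KO untreated cells with the deposited scaling and with only the groups compared, and 1 higher than in KO control cells with totals alone and with no filter. For the difference of the 2 responses, calls lower numbered 307 with the deposited scaling, 294 with no filter and 293 with only the groups compared, and 2 of the 40 were higher with median-of-ratios scaling and on rlog values. The cause was not tested. Same-numbered libraries deviated together at r = 0.0126 to 0.315 over tested genes, not above 0.1 for every pair of groups, so the numbers were not taken to pair the libraries. Within a genotype r was 0.172 to 0.315. That rule was read over all tested genes, while in each group library 1 was the higher for 38 to 40 of these 40. With the replicate number as a block, 3 of the 40 genes were lower in KO control than in KO untreated cells (Aurkb, Kif22 and Foxm1, limma adjusted p = 0.00365, 0.00956 and 0.0162), 3 higher in KO Poly(I:C) than in KO untreated cells, and 4 higher in the difference of the 2 responses, with 743 of all genes lower there. It also called Incenp (0.00167) and Kif4 (0.0318) lower in WT control against WT untreated, Cenpe (0.0132) and Ube2c (4.46e-05) lower in KO Poly(I:C) against KO untreated, Incenp, Cenpe and Ube2c lower and Kif4 higher in KO Poly(I:C) against KO control, and Ube2c in the comparison of KO control with WT control and in the interaction. The block gave 29 genes higher and 74 lower in KO untreated against WT untreated cells. Leaving out 1 library at a time, of the 40 genes 34 to 39 were lower in WT control against WT untreated, 30 to 36 lower and 1 to 3 higher in KO Poly(I:C) against KO untreated, 29 to 35 lower and 1 to 3 higher in KO Poly(I:C) against KO control, 30 to 35 higher in KO control against WT control, 26 to 35 above 0 in the interaction and 1 to 4 in the difference of the 2 responses. Over all genes it gave 551 to 1468 higher and 514 to 1330 lower in KO control against KO untreated, 7 to 41 and 3 to 14 in KO untreated against WT untreated, and 303 to 734 and 139 to 471 in the difference of the 2 responses. Signs turned with totals alone for Cdc27 −0.073, E2f3 −0.068, E2f4 −0.095, Esco1 −0.047 and Stag2 −0.068 in WT control against WT untreated cells, for Kif4 −0.34, Tpx2 −0.31, Anapc13 −0.16, E2f4 −0.28, Lin54 −0.19, Stag1 −0.28, Stag2 −0.23 and Zwint −0.35 in KO Poly(I:C) against KO untreated cells, for Kif4 −0.17 and Tpx2 −0.13 in KO Poly(I:C) against KO control cells, for E2f4 0.12 in KO control against WT control cells. In WT control against WT untreated, Ccnd1 was 0.0062 with the deposited scaling and Ccnd1 was 0.024 without library 1 of WT control. In KO control against KO untreated, Kif20a was −0.055 without library 1 of KO control, Ccnb2 was −0.029 without library 2 of KO untreated and Ccnb2 was −0.17 without library 1 of KO control. In KO control against WT control, Incenp was −0.10 with the deposited scaling, Incenp was −0.043 without library 2 of WT control, Incenp was −0.086 without library 1 of KO control, Kif4 was −0.10 with the deposited scaling, Kif4 was −0.06 without library 2 of WT control and Kif4 was −0.14 without library 1 of KO control. In the interaction, Kif4 was −0.11 without library 1 of WT untreated. Over all libraries left out, Ccnd1 ran between −0.34 and 0.024 in WT control against WT untreated, Kif20a ran between −0.055 and 0.40 in KO control against KO untreated, Ccnb2 ran between −0.17 and 0.38 in KO control against KO untreated, Incenp ran between −0.086 and 0.26 in KO control against WT control, Kif4 ran between −0.14 and 0.31 in KO control against WT control and Kif4 ran between −0.11 and 0.65 in the interaction. edgeR and DESeq2 on recovered reads were not run, since whole reads could not be recovered from rounded values, and the read depth that limits low genes is unknown.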
